A study of Mus musculus with 2 samples.

Results

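The acrosome genes described here are 32 genes whose proteins build, fill or use the acrosome, the secretory cap on the front of the sperm nucleus. They were chosen by symbol from a fixed list, and all 32 were found among the 32285 genes of the count tables. RNA of single cells from dissociated whole mouse testis was measured with a droplet kit that reads the 3′ end of each transcript and counts unique molecular identifiers (UMIs). The Dot1L cKO library came from testes of the genotype Dot1L fl/delta; Ddx4-Cre+, in which Cre recombinase is driven by the germ cell gene Ddx4. The control library came from testes of the genotype Dot1L fl/+; Cre-, so the controls carry 1 floxed allele and no Cre. There was 1 library of each genotype, and the labels give neither the age nor the number of the mice. DOT1L is a methyltransferase that modifies the core of histone H3 along transcribed genes. The comparison asks which acrosome genes differ in RNA level when it is removed from germ cells, and at which stage of spermatogenesis each gene comes on.

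The acrosome is a lysosome-related organelle. Its vesicles leave the Golgi apparatus of the early round spermatid, fuse into a single granule on the nuclear envelope, and spread over the nucleus as the spermatid elongates. Some of its proteins bring Golgi vesicles to the nucleus and anchor them there, others are the stored enzymes and zona-binding proteins released at fertilization, and others sit on the membrane that fuses with the egg. Genes of spermatids are often transcribed already in late meiotic spermatocytes, and many of their RNAs are stored before they are translated.

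The tables hold 20601 barcodes and 156518838 UMIs in cKO, and 17408 barcodes and 155487418 UMIs in control. Germ cells with 3000 or more UMIs were placed in 8 ranges from marker panels that hold none of the 32 genes: spermatogonium, early spermatocyte, pachytene, diplotene to secondary spermatocyte, early round, late round, elongating and condensing spermatid. These are ranges cut from scores, not types, and of the elongating cells 57.0% in cKO and 59.8% in control lay near a cut. They held 7534 cKO and 7318 control cells, from 417 cKO and 219 control spermatogonia to 1924 cKO and 2463 control condensing cells. Without integration the early round, elongating and condensing cells formed largely separate clusters in each library, whereas pachytene, diplotene and late round cells shared clusters. Dot1l itself was at 8.64 UMIs per 1000000 UMIs of the range (CPM) in early round cKO cells, against 59.5 CPM in control cells. In pachytene cells it was at 57.8 CPM in cKO and 82.6 CPM in control. With 1 library per genotype no test was possible, and every interval below is an exact 95% interval that covers counting error only.

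Droplets also hold free RNA. Leydig cells, the somatic cells that make testosterone, should lack nearly all of these transcripts, yet the 32 genes made up 0.406% of UMIs in 127 cKO Leydig cells and 0.432% in 24 control Leydig cells. Other somatic cells had more: the share was 0.471% in cKO and 0.479% in control macrophages, 0.625% and 0.753% in Sertoli cells, and 0.629% and 0.777% in mesenchymal cells, from 46 cKO and 13 control cells. Leydig cells thus gave the lowest of these levels. A gene's value in spermatogonia and early spermatocytes at or below its Leydig level is read here as background, and a value above it may still be background.

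Onset was taken as the first range in which a gene reached 25% of its own highest CPM, in each library apart. By this rule 31 of the 32 genes came on in the same range in cKO and in control, and 28 of 32 peaked in the same range. The order had a first wave, mostly in meiosis, and a second in early round spermatids. Before the early round range 18 genes in cKO and 17 in control came on, and in each library 6 of these did so in spermatogonia. The number of genes in the second wave depends on the 25% level. With onset at 10% of the peak 32 genes in cKO and 27 in control came on before early round cells, and 20 of 32 shared a range. Some of these calls rest on values in spermatogonia that were higher than in pachytene cells. Cylc1 was at 13.6% of its peak in spermatogonia and 2.55% in pachytene cells of cKO, against 11.8% and 1.61% in control. Free RNA would also give such early values, and its part in the 10% calls was not tested. The last range at or above 25% of the peak was the same in both libraries for all 32 genes.

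**Figure D1:**
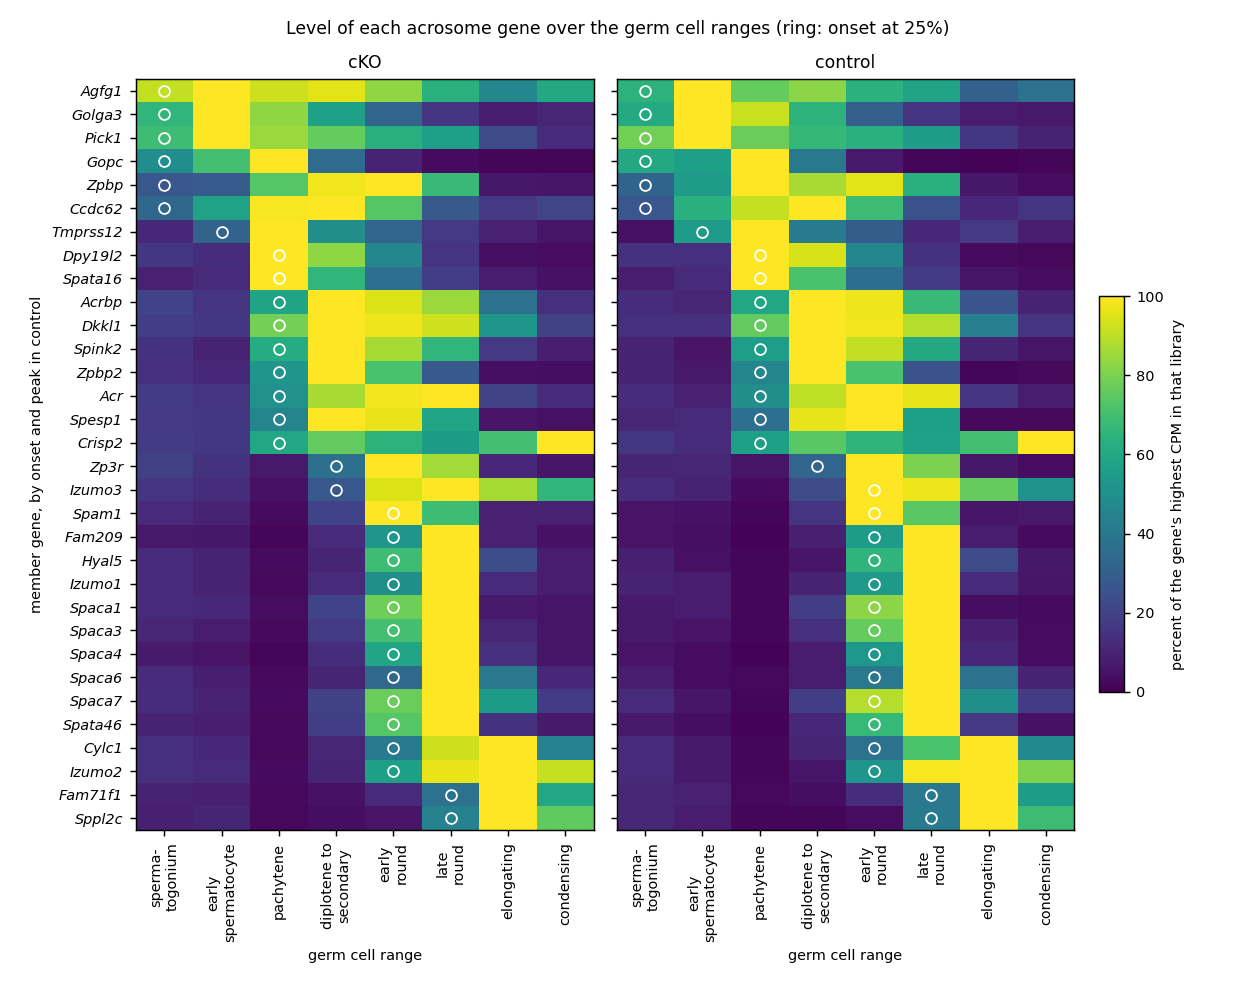
Each row is an acrosome gene and each column a germ cell range, with the colour giving the CPM as a percent of that gene's highest CPM in the same library (cKO left, control right) and the ring marking onset at 25%. The rings run from spermatogonia to late round spermatids, with most in pachytene or early round cells. Of the 32 rings 31 stand in the same column in both libraries.

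Among the 16 genes grouped as acrosome biogenesis, the Golgi and vesicle genes came first. Gopc, a Golgi protein whose loss gives round-headed mouse sperm without acrosomes, was at 24.5 CPM in spermatogonia, 49.8 CPM in pachytene and 4.73 CPM in early round cells of cKO. In control it was at 26.6, 44.0 and 2.97 CPM in the same ranges. Its last range above 25% of the peak was diplotene to secondary in both libraries, the earliest among the 32. Pick1, which binds GOPC on Golgi-derived vesicles, Golga3, a golgin, and Agfg1, which acts in the fusion of proacrosomal vesicles, also reached 25% in spermatogonia and peaked in early spermatocytes. With free RNA subtracted by an estimate scaled to the marker panels, Golga3 peaked in pachytene cells in both libraries. Pick1 and Agfg1 then peaked there in cKO, but still in early spermatocytes in control. In early spermatocytes that estimate exceeded the summed UMIs of the 32 genes, at 109% in cKO and 132% in control. These shifts of the peak are therefore uncertain. Agfg1 was at 82.5 CPM in cKO and 61.6 CPM in control spermatogonia, above its 40.1 CPM and 27.7 CPM in Leydig cells. Other tissues use these 4 genes too, so their RNA in Leydig cells need not be free RNA.

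Zpbp and Ccdc62 met the 25% rule in spermatogonia as well. In cKO Zpbp was below its Leydig level there and Ccdc62 near it, while in control both were above it. Ccdc62, a coiled-coil protein needed for acrosome formation in mice, was at 93.8 CPM in cKO spermatogonia and 81.3 CPM in cKO Leydig cells, against 83.3 CPM and 45.0 CPM in control. With free RNA subtracted by an estimate scaled to the marker panels, its onset stood in early spermatocytes in both libraries. Onset of Zpbp then stood in pachytene cells in cKO and in early spermatocytes in control. In spermatogonia that estimate was 102% of the summed UMIs of the acrosome genes in cKO and 161% in control. In early spermatocytes it was 109% in cKO and 132% in control. It thus exceeded the whole sum in each library, and these onset shifts are uncertain.

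Pachytene cells were the onset range of 9 genes in each library, and the biogenesis genes among them were Dpy19l2, Spata16, Zpbp2 and Spink2. Spata16, a Golgi and proacrosomal protein mutated in globozoospermia, was at 82.4 CPM in early spermatocytes and 668 CPM in pachytene cells of cKO, against 93.6 and 753 CPM in control. By early round cells it was down to 244 CPM in cKO and 271 CPM in control. Dpy19l2, the inner nuclear membrane protein that anchors the acrosome, was at 31.9 CPM in early spermatocytes, 243 CPM in pachytene and 113 CPM in early round cells of cKO, against 32.2, 231 and 108 CPM in control. The RNA of the anchor therefore peaked in spermatocytes, before the range in which acrosomes form. Fam209, the partner of DPY19L2, followed in early round cells. It was at 37.3 CPM in pachytene cells and 1948 CPM in late round cells of cKO, against 18.4 and 1975 CPM in control.

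Spaca1, an acrosomal membrane protein, Spata46, a subacrosomal protein, and Cylc1, a cylicin of the perinuclear theca, also came on in early round cells. Fam71f1 and Sppl2c were last. Fam71f1, needed for a normal acrosome in mice, was at 94.7 CPM in early round, 291 CPM in late round and 768 CPM in elongating cells of cKO, against 88.1, 272 and 678 CPM in control. Sppl2c, an intramembrane protease of spermatids, was at 15.4, 125 and 282 CPM in these ranges of cKO, against 9.27, 113 and 271 CPM in control. Both stayed above 25% of the peak into condensing cells.

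The 12 genes for proteases, hyaluronidases and other contents fell into the same waves. Tmprss12, a transmembrane serine protease needed for sperm to pass the oviduct, was earliest, with 12.7 CPM in early spermatocytes and 40.2 CPM in pachytene cells of cKO, against 25.3 and 45.9 CPM in control. Its early spermatocyte value in cKO was close to the 9.29 CPM in cKO Leydig cells, and with scaled free RNA subtracted the cKO onset stood in pachytene cells. The scaled estimate in early spermatocytes exceeded the summed UMIs of the acrosome genes, so this onset shift is uncertain. Acr, Acrbp, Crisp2, Dkkl1 and Spesp1 came on in pachytene cells. Acr encodes proacrosin, the trypsin-like protease of the acrosome, and was at 30.9 CPM in early spermatocytes, 99.7 CPM in pachytene and 195 CPM in early round cells of cKO, against 15.5, 85.1 and 172 CPM in control. Acrbp, the protein that binds proacrosin, stood at 80.0, 310.1 and 502 CPM in these ranges of cKO, against 64.1, 352 and 572 CPM in control. Spink2, the protease inhibitor that guards the forming acrosome against acrosin, shared this onset and was at 215, 1386 and 1931 CPM in cKO, against 150.0, 1548 and 2506 CPM in control. Protease, binding protein and inhibitor thus came on in the same range.

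Zp3r, a zona-binding protein of the acrosomal matrix, reached 25% in diplotene to secondary cells, at 47.5 CPM in cKO and 43.5 CPM in control. The latest of the group were Spam1 and Hyal5, the sperm hyaluronidases, and Spaca3, Spaca4 and Spaca7, which came on in early round cells. Spam1 was at 33.4 CPM in diplotene to secondary and 166 CPM in early round cells of cKO, against 31.2 and 204 CPM in control. Hyal5, its neighbour on chromosome 6, was at 16.8 and 112 CPM in cKO, against 10.1 and 108 CPM in control, but kept rising to 162 CPM in late round cKO cells and 165 CPM in late round control cells. Spam1 was lower in late round than in early round cells, at 115 CPM in cKO and 151 CPM in control. Crisp2, a cysteine-rich secretory protein of acrosome and tail, differed from all the others in that its highest level was in condensing cells, at 4029.6 CPM in cKO and 4289.7 CPM in control.

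Of the 4 fusion genes Izumo1, Izumo2 and Spaca6 came on in early round cells in both libraries. Izumo1, the sperm protein that binds the egg receptor JUNO, was at 21.3 CPM in diplotene to secondary, 87.3 CPM in early round and 175 CPM in late round cells of cKO, against 18.4, 102 and 190 CPM in control. Spaca6, also required for sperm and egg to fuse, was at 10.5, 35.1 and 102 CPM in cKO, against 7.02, 36.3 and 90.7 CPM in control. Izumo2 was still at 644 CPM in condensing cells of cKO and 712 CPM in control. Izumo3 was the single gene with a different onset range by the 25% rule on the counts as they are. It stood at 27.2% of its peak in diplotene to secondary cells of cKO and 23.1% in control, on either side of the 25% rule, with 78.9 CPM in cKO and 74.5 CPM in control. With scaled free RNA subtracted its onset was in early round cells in both libraries, 30 of 32 genes shared a range, and Zpbp and Tmprss12 were the genes that differed. Onset calls that turn on spermatogonia or early spermatocytes are uncertain under this setting. The scaled estimate there exceeded the summed UMIs of the 32 genes.

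The 3′ ends of all 32 genes but Izumo1 and Pick1 were free of 40-base stretches shared with transcripts of other genes. The last 400 bases of Izumo1 lie wholly within transcripts annotated to Rasip1 on the same strand. Reads there match both genes, and how they were counted is not stated. The Izumo1 values are uncertain for that reason. For Pick1 13.6% of the 40-base stretches in that window occur elsewhere.

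Promoters are printed for a gene of each wave and for the pair that the genotype comparison turns on. They are the 250 bases before the RefSeq transcription start (GRCm38.p6), written 5′ to 3′ on the gene's strand, with matches to the motifs searched in capitals. Zpbp lies at chr11:11462420-11462669 on the minus strand, Zpbp2 at chr11:98550847-98551096 on the plus strand, Izumo1 at chr7:45621561-45621810 on the plus strand and Sppl2c at chr11:104186077-104186326 on the plus strand.
Zpbp: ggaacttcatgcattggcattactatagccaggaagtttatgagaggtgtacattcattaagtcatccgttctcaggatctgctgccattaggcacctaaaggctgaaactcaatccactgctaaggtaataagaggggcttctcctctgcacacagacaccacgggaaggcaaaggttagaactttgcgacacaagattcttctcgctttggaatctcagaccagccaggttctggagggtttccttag
Zpbp2: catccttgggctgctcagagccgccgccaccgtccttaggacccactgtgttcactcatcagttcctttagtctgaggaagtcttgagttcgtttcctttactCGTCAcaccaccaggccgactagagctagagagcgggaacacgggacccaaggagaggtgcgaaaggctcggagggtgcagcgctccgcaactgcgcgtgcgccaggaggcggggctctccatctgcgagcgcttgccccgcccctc
Izumo1: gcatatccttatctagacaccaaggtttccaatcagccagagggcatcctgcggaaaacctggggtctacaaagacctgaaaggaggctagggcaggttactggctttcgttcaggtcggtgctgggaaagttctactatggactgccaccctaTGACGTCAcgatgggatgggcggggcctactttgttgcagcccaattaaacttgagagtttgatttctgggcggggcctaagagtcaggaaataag
Sppl2c: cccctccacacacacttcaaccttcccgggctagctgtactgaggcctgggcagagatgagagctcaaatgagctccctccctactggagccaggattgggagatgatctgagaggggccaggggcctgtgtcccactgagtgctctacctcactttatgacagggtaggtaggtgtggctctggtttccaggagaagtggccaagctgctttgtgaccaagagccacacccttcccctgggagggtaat
The motifs searched on both strands were the cyclic AMP response element TGACGTCA, its core TGACG, which lies within it, the MYB site AACNGTT and the X-box core GTTGCC. A promoter was found in the table for 31 of the 32 genes. Izumo1 alone held TGACGTCA, which begins 96 bases before the start, and 1.62% of all promoters hold it. TGACG occurred in 7 of 31 (22.6%), among them Zpbp2, Acrbp, Spaca1 and Spaca3, beside 17.9% of all promoters. It was in 4 of 16 genes that came on before the early round range in control and in 3 of 15 that came on later. AACNGTT occurred in 1 gene, Spesp1, beside 3.68% of all promoters. GTTGCC occurred in 6 of 31 (19.4%), beside 10.5% of all promoters, in 5 of the 16 earlier genes and 1 of the 15 later ones. These matches describe letters and do not show binding.

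Added together, the 32 genes took a growing share of UMIs up to late round cells. In cKO they made up 0.785% of UMIs in pachytene, 1.14% in diplotene to secondary, 1.45% in early round, 1.58% in late round, 0.793% in elongating and 0.702% in condensing cells. In control the shares were 0.8001%, 1.21%, 1.59%, 1.65%, 0.784% and 0.692%. The share in early and late round cells was lower in cKO, with log2 ratios of -0.13 and -0.07. In elongating cells the log2 ratio was 0.016 with an interval that holds 0, and it was -0.14 with spermatids ordered by transition protein and protamine genes, -0.056 in Leiden clusters and -0.17 with unscaled free RNA subtracted. In condensing cells it was 0.021, and -0.23 with unscaled free RNA subtracted. Crisp2 alone held 57.4% of the sum in condensing cells of cKO and 62.0% in control.

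**Figure D2:**
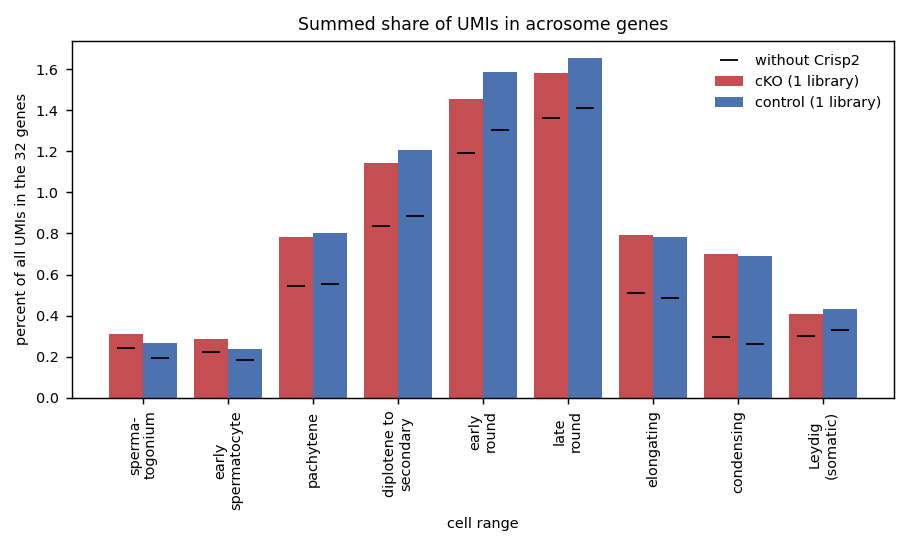
Bars give the summed share of UMIs in the 32 genes by cell range, in 1 cKO (left bar) and 1 control library (right bar), and black ticks give the share without Crisp2. The share is highest in late round cells, at 1.58% in cKO and 1.65% in control, and the Leydig bars, the lowest of the somatic cells measured, stand at 0.406% in cKO and 0.432% in control.

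The level of most acrosome genes in round spermatids differed little between cKO and control. In early round cells 3 of 32 genes were over 1.5-fold higher in cKO and 0 of 32 over 1.5-fold lower. Of all 13664 genes with 50 or more UMIs in that range, 21.5% were over 1.5-fold higher and 6.14% over 1.5-fold lower. In late round cells 1 of 31 was higher and 0 of 31 lower, beside 18.6% and 6.49% of all genes measured. The shares over all genes were not matched to the acrosome genes in level, and genes with few UMIs pass 1.5-fold more easily by counting error. The median log2 ratio of cKO over control was -0.05 over the 32 genes in early round cells, beside 0.13 over all genes, and -0.02 beside 0.12 in late round cells. Of the other acrosome genes measured, the log2 ratios in late round cells ran only from -0.40 for Spam1 to 0.40 for Cylc1 once Zpbp was set aside.

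**Figure D3:**
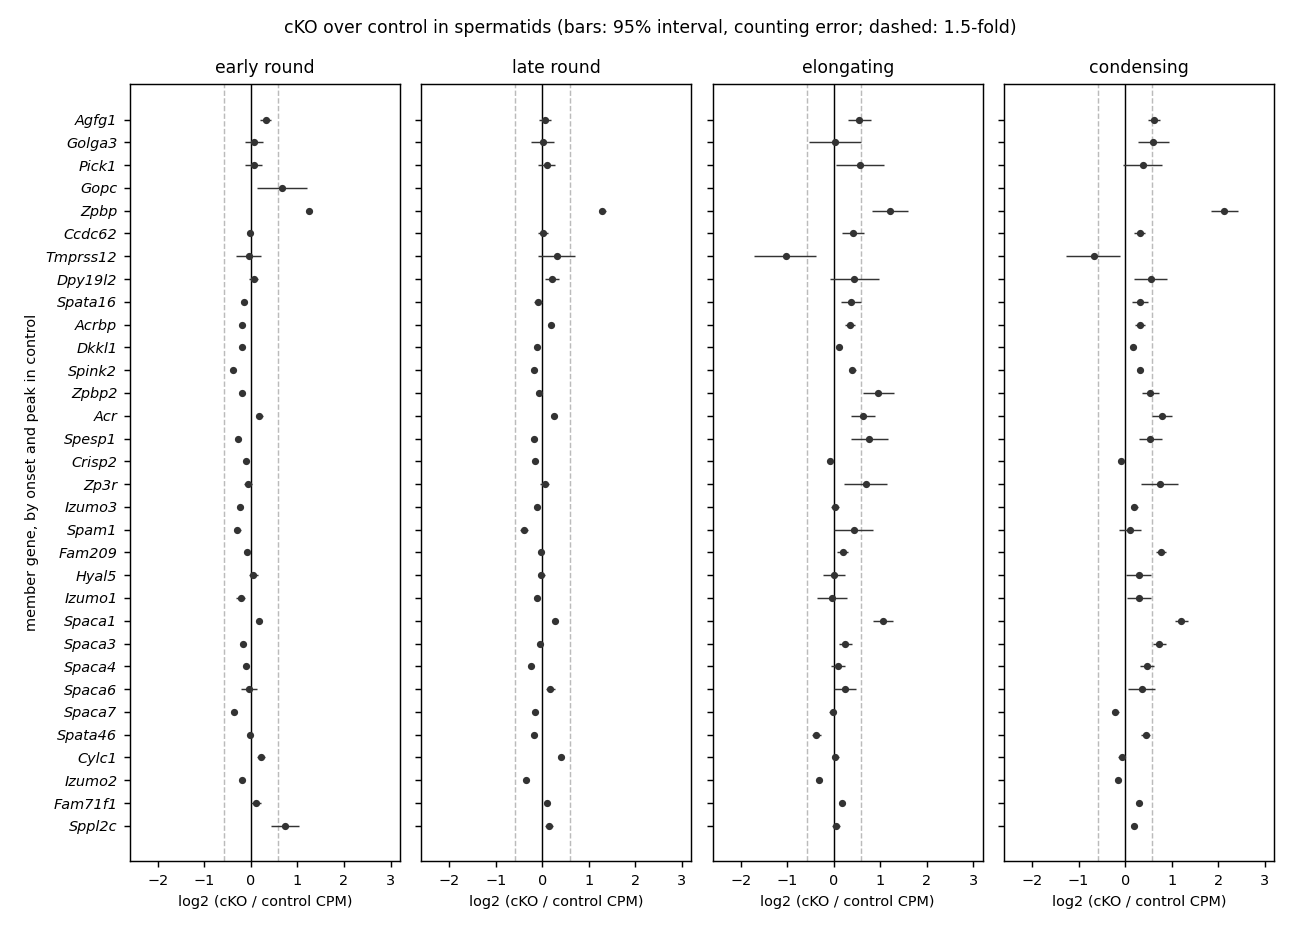
Points give the log2 ratio of CPM, cKO over control, of each acrosome gene with 50 or more UMIs over both libraries in 4 spermatid ranges, with exact 95% intervals for counting error. In late round cells every gene but Zpbp (log2 ratio 1.29) lies between -0.40 and 0.40, and the points spread out in elongating and condensing cells.

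Zpbp was the exception. It encodes zona pellucida binding protein, a protein of the acrosomal matrix whose loss in mice deforms the sperm head, and it was over 1.5-fold higher in cKO in every spermatid range, although in elongating cells the call was lost with scaled free RNA subtracted. In early round cells it was at 391 CPM in cKO (95% interval 382 to 401, from 6204 UMIs), against 165 CPM in control (159 to 171, from 2822 UMIs), a log2 ratio of 1.25. In late round cells it was at 266 CPM in cKO and 109 CPM in control, a log2 ratio of 1.29. Over the processing alternatives the ratio ran from 1.12 to 1.28 in early round, from 1.11 to 1.31 in late round, from 0.39 to 1.32 in elongating and from 1.72 to 2.22 in condensing cells. Subtracting unscaled free RNA gave no ratio in elongating and condensing cells, nor did scaled free RNA in condensing cells, since a library was left with 0. In meiosis Zpbp was at 288 CPM in cKO against 172 CPM in control in pachytene cells (log2 ratio 0.75) and 383 against 149 CPM in diplotene to secondary cells (1.36). The highest level of the gene was thus in early round cells of cKO and in pachytene cells of control. In cKO the level in diplotene to secondary cells was 97.8% of that in early round cells. With scaled free RNA subtracted the cKO peak stood in diplotene to secondary cells, and the control peak stayed in pachytene cells. In early spermatocytes Zpbp was at 113 CPM in cKO and 94.0 CPM in control, with a log2 ratio of 0.26 (0.03 to 0.49). In spermatogonia it was at 106 CPM in cKO and 55.4 CPM in control, a log2 ratio of 0.94 (0.64 to 1.24). The cKO value was below the Leydig level, so this ratio cannot be told apart from background. With scaled free RNA subtracted the spermatogonia had 16.2 CPM in cKO and 14.3 CPM in control. The scaled estimate there was 102% of the summed UMIs of the acrosome genes in cKO and 161% in control. It exceeded the whole sum and differed by library, so these subtracted values cannot decide whether the genotypes differ in spermatogonia.

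Zpbp2, the paralog of Zpbp that acts with it in the acrosome, was not higher in cKO in the ranges from pachytene to late round taken whole. In some of the clusters described below it was higher. It was at 741 CPM in cKO and 846 CPM in control in diplotene to secondary cells, and at 529 CPM in cKO and 604 CPM in control in early round cells, log2 ratios of -0.19 and -0.19. In late round cells it stood at 208 CPM in cKO and 218 CPM in control. At low levels in late spermatids it was higher in cKO, with log2 ratios of 0.96 in elongating and 0.54 in condensing cells.

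**Figure D4:**
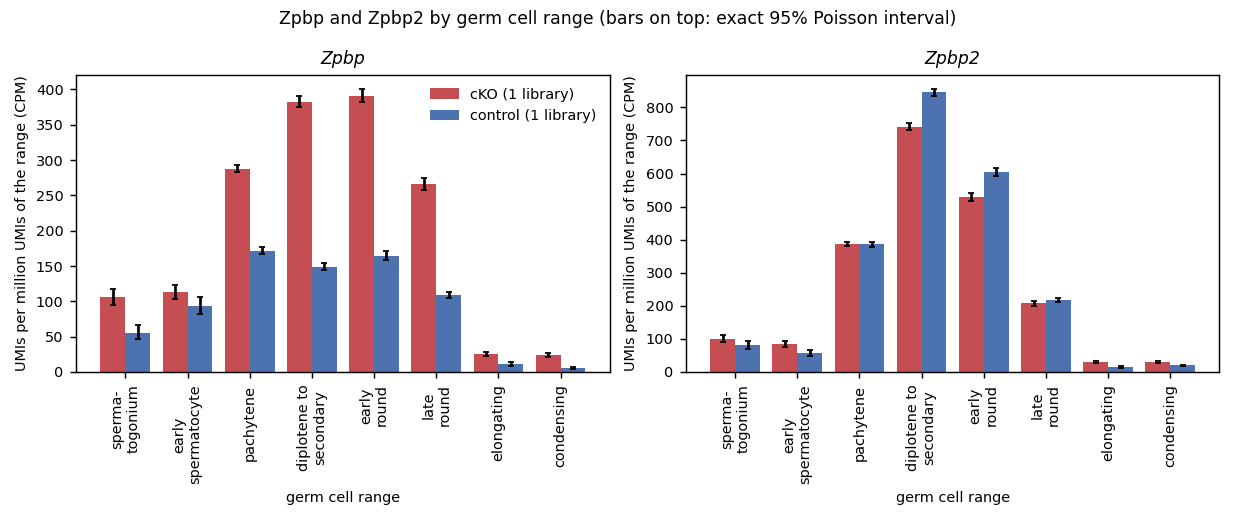
Bars give CPM of Zpbp (left panel) and Zpbp2 (right panel) in each germ cell range, cKO left of control, with exact 95% Poisson intervals and 1 library per genotype. From pachytene to late round cells the Zpbp bars of cKO stand above those of control, at 391 against 165 CPM in early round cells, and the Zpbp2 bars do not.

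More cells held Zpbp at equal depth. With each cell thinned to 3000 UMIs, 67.7% of 863 early round cKO cells (95% binomial interval 64.4% to 70.8%) and 36.9% of 873 control cells (33.7% to 40.2%) had a Zpbp UMI. Unthinned, the shares were 94.0% and 85.0%. In Leydig cells, which should lack the gene, the thinned shares were 19.7% in cKO and 4.17% in control, from 25 of 127 and 1 of 24 cells. The Leydig level moved with genotype too, and was 114 CPM in cKO and 41.5 CPM in control. With the scaled estimate of free RNA subtracted, early round cells had 339 CPM in cKO and 151 CPM in control, and late round cells 187 and 86.4 CPM.

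Zpbp was also compared in the clusters that hold 100 or more cells of each library. In spermatogonium cluster 14 it was at 72.6 CPM in cKO and 37.9 CPM in control, a log2 ratio of 0.94. Both values were below the Leydig level of their library, so this ratio is read as background. The median log2 ratio of the acrosome genes measured there was 0.32, beside -0.00036 over all genes. In early spermatocyte clusters 11 and 12 the log2 ratio of Zpbp was 0.13 and 0.29, with intervals that hold 0. In pachytene cluster 15, with the highest pachytene panel score, Zpbp was at 214 CPM in cKO and 168 CPM in control, a log2 ratio of 0.35. In pachytene cluster 7 it was at 275 CPM in cKO and 188 CPM in control (0.54). In pachytene cluster 17, which has the highest diplotene panel score of the 3, it was at 370.3 CPM in cKO and 157 CPM in control (1.24). It stayed there in diplotene to secondary clusters 18 (1.37) and 3 (1.34), and in late round clusters 13 (1.27) and 9 (1.48). In late round cluster 9, with 445 cKO and 419 control cells, Zpbp was the only gene of 31 measured over 1.5-fold higher and none was over 1.5-fold lower, beside 22.7% and 7.63% of all genes. In late round cluster 13 Zpbp and Dpy19l2 (0.60) were higher, 2 of 31 genes, and 0 lower, beside 22.9% and 7.53%. In early round cluster 4, of lower depth, the log2 ratio of Zpbp was 0.79, and Zpbp and Pick1 (0.64) were the 2 of 30 genes higher, with 0 lower, beside 17.0% and 6.57%. The largest ratio of Zpbp was 2.22 in diplotene to secondary cluster 5, also of lower depth, where 955 cKO and 179 control UMIs were counted. Zpbp2 was also higher in cKO in pachytene cluster 15 (log2 ratio 0.32), late round cluster 9 (0.32) and diplotene to secondary cluster 5 (0.15). In the other clusters from pachytene to late round its ratio ran from -0.48 to -0.0018. In cluster 15 Zpbp and Zpbp2 thus had similar ratios.

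**Figure D5:**
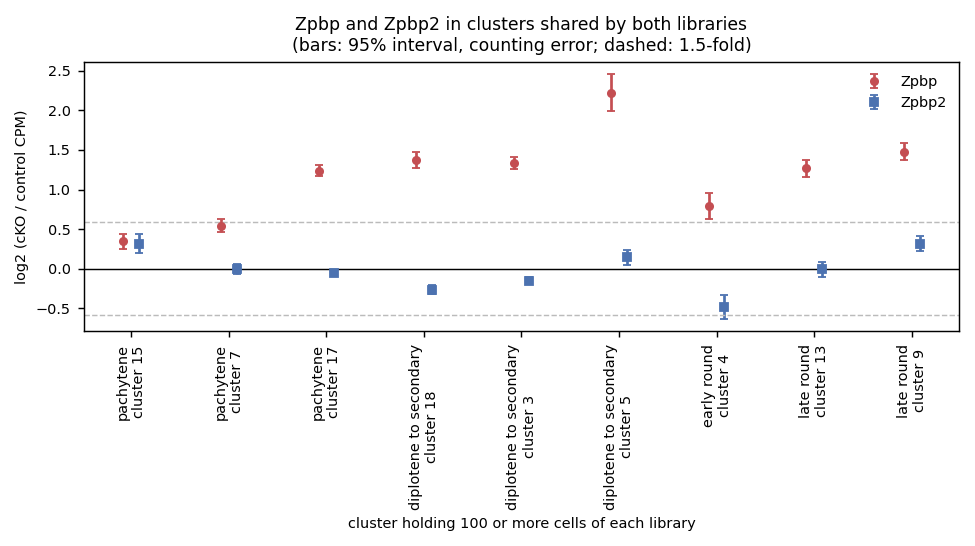
Points give the log2 ratio of CPM, cKO over control, of Zpbp (circles) and Zpbp2 (squares) in each cluster with 100 or more cells of both libraries, from pachytene to late round, with exact 95% intervals for counting error. Zpbp lies at 0.35 in pachytene cluster 15 and at 1.24 in pachytene cluster 17, while Zpbp2 stays between -0.48 and 0.32. In cluster 15 Zpbp2 is at 0.32, close to Zpbp.

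Zpbp spans chr11:11279626-11462408 on the minus strand (GRCm38, GENCODE vM21). Its 5′ end overlaps the 5′ end of Spata48, which runs the other way from chr11:11462094-11515192. Spata48 was at 106 CPM in cKO and 114 CPM in control early round cells, a log2 ratio of -0.11, and at 209 against 279 CPM in late round cells (-0.41). Vwc2, on the other side, was at 12.5 CPM in cKO and 11.8 CPM in control early round cells. Of 11 neighbours within 500 kb, 8 were measured in early round cells. Gm11998 (log2 ratio 1.05), Ddc (1.33) and Grb10 (0.73) were over 1.5-fold higher in cKO there, beside 21.5% of all genes. Their UMIs were few, at 65, 35 and 43 in cKO and 34, 15 and 28 in control. The other neighbours measured were not past the limit. In diplotene to secondary cells Gm11998 was at 1.38 and 4930512M02Rik at 0.97. These neighbours were looked up after the values of Zpbp were seen. The promoter of Zpbp printed above held none of the motifs searched.

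The remaining genes past 1.5-fold in early round cells were both low there. Sppl2c had 244 UMIs in cKO (15.4 CPM) and 159 in control (9.27 CPM), a log2 ratio of 0.73, in a range before its own onset. Gopc had 75 UMIs in cKO (4.73 CPM) and 51 in control (2.97 CPM), a log2 ratio of 0.67 with an interval of 0.14 to 1.21. Both were below their Leydig levels, which were 32.5 CPM in cKO and 20.8 CPM in control for Sppl2c and 15.7 CPM and 13.8 CPM for Gopc. Neither kept its sign under every setting: Sppl2c was at -2.08 with scaled free RNA subtracted and Gopc at -0.03 in Leiden clusters.

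Elongating and condensing cells had more genes past the limit, as did all genes. In elongating cells 6 of 31 were over 1.5-fold higher in cKO and 1 of 31 lower, beside 25.2% and 5.99% of all genes measured. In condensing cells 8 of 31 were higher and 1 of 31 lower, beside 37.1% and 4.38%. The median log2 ratio was 0.24 over the acrosome genes and 0.21 over all genes in elongating cells, and 0.32 beside 0.41 in condensing cells. Transition protein and protamine genes held fewer of the UMIs in cKO, at 219866 CPM in condensing cells of cKO against 300485 CPM in control. These counts moved with the processing. In elongating cells the number higher ran from 1 with doublets kept to 8 with a mitochondrial limit of 5%, and the number lower from 0 with a minimum of 500 UMIs to 6 with unscaled free RNA subtracted. With spermatids ordered by transition protein and protamine genes 2 were higher and 4 lower there, and the median was -0.04. With unscaled free RNA subtracted the median was -0.12. In condensing cells 0 were higher with unscaled and 15 with scaled free RNA subtracted, and 2 with the 50 most abundant genes left out of the totals, where the median was 0.11.

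Spaca1, whose loss in mice gives round-headed sperm, had the largest ratios of these besides Zpbp. In elongating cells it was at 73.1 CPM in cKO (608 UMIs) and 35.2 CPM in control (253 UMIs), and in condensing cells at 62.9 CPM in cKO and 27.3 CPM in control, log2 ratios of 1.06 and 1.21. At its peak in late round cells it was at 1093 CPM in cKO and 912 CPM in control, a log2 ratio of 0.26. With transition protein and protamine genes used to order the spermatids, the elongating ratio was 0.35. The elongating and condensing levels of Spaca1 in cKO were below its Leydig level. Subtracting unscaled free RNA gave no ratio in either range, and subtracting the scaled estimate gave 1.99 and 3.21. Zpbp itself was at 25.3 CPM in cKO and 10.98 CPM in control elongating cells (1.20), and at 24.1 against 5.51 CPM in condensing cells (2.13). With scaled free RNA subtracted the elongating ratio of Zpbp was 0.39.

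The others past the limit in elongating cells were Zpbp2, at 29.96 CPM in cKO and 15.4 CPM in control (log2 ratio 0.96), Spesp1, a protein of the equatorial segment, at 18.9 and 11.1 CPM (0.76), Zp3r at 14.1 and 8.75 CPM (0.69), and Acr at 40.4 and 26.1 CPM (0.63). Zp3r was at -0.11 with spermatids ordered by transition protein and protamine genes, and at -0.03 in Leiden clusters. In condensing cells they were Acr (0.79), Fam209 (0.78), Zp3r (0.74), Spaca3, a lysozyme-like protein (0.73), Agfg1 (0.62) and Golga3 (0.61). None of these 6 was over 1.5-fold higher in condensing cells once the ratios were scaled by the median ratio of all genes, under which Zpbp (1.72) and Spaca1 (0.80) still were. In cKO Zp3r stood below its Leydig level in both ranges. Unscaled free RNA was estimated at 54.2% of the UMIs of the 32 genes in elongating cells of cKO and 44.2% in control. In condensing cells the estimates were 90.7% in cKO and 76.8% in control. Tmprss12 was the single gene lower in cKO, from few UMIs: 31 in cKO and 55 in control elongating cells (3.73 against 7.64 CPM, log2 ratio -1.04, interval -1.72 to -0.37), and 38 and 88 in condensing cells (2.28 against 3.65 CPM, -0.68).

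The 4 genes with their peak in elongating cells, Cylc1, Fam71f1, Izumo2 and Sppl2c, and Crisp2, with its peak in condensing cells, did not pass 1.5-fold at their peak. In elongating cells Cylc1 was at 342 CPM in cKO and 333 CPM in control (0.04), and Crisp2 at 2826 CPM in cKO and 2987 CPM in control (-0.08). Fam71f1 had log2 ratios of 0.18 in elongating and 0.30 in condensing cells, and Sppl2c of 0.06 and 0.19. Izumo2 was lower in cKO in all 4 spermatid ranges, with log2 ratios of -0.20 in early round, -0.36 in late round, -0.32 in elongating and -0.14 in condensing cells, although the sign turned in early round cells in Leiden clusters (0.03) and in condensing cells with unscaled free RNA subtracted (0.08).

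In pachytene cells 9 of the 15 genes that come on in early or late round cells of control were over 1.5-fold higher in cKO, at low levels, and 0 lower. These 15 were picked by their low levels in control spermatocytes, which leans the comparison toward higher in cKO. By onset in cKO Izumo3 would not be among them. Over all acrosome genes 10 of 32 genes were higher and 0 of 32 lower, beside 13.5% and 3.13% of all genes measured. They were Spaca1 (log2 ratio 1.14), Spata46 (1.11), Fam209 (1.02), Spaca3 (1.01), Hyal5 (0.98), Spam1 (0.79), Sppl2c (0.78), Zpbp (0.75), Spaca4 (0.74) and Cylc1 (0.70). The 15 genes summed to 249 CPM in cKO pachytene cells and 142 CPM in control ones, and the early round marker panel rose with them, at 146 CPM in cKO and 88.4 CPM in control. The UMIs were unevenly spread over cells. In pachytene cluster 7 the sum was 389 CPM in cKO and 108 CPM in control, 59.6% of it in cKO and 48.5% in control lay in the tenth of cells with most, and the panel stood at 238 and 81.4 CPM. There 16 of 32 genes were over 1.5-fold higher and 0 lower, beside 17.7% and 3.26% of all genes. In pachytene cluster 17 the sum was 103 CPM in cKO and 82.8 CPM in control, and 3 of 29 genes were higher and 0 lower, beside 10.6% and 5.34%. In pachytene cluster 15 the sum was 195 CPM in cKO and 164 CPM in control, and Cylc1 was the 1 of 30 genes higher, with 0 lower, beside 7.63% and 2.52%. Doublets of a spermatocyte and a spermatid, and free RNA, would both carry these genes, and their part was not tested.

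In diplotene to secondary cells 3 of 32 genes were over 1.5-fold higher and 0 of 32 lower, beside 20.6% and 5.34% of all genes measured. They were Sppl2c, at 10.2 CPM in cKO and 3.75 CPM in control (1.44), Zpbp (1.36) and Hyal5, at 16.8 and 10.1 CPM (0.73). The 3 clusters of these cells differed from each other. In cluster 3, the largest, Zpbp was the only one of 32 past the limit, beside 18.8% of all genes higher and 5.25% lower. In cluster 18 17 of 32 were higher and 0 lower, beside 19.9% and 4.17%. All 15 genes that come on in round spermatids of control were among them. These 15 summed to 660.4 CPM in cKO and 221 CPM in control, with the early round panel at 364 CPM and 133 CPM. In cluster 5, of lower depth, 2 of 32 were higher and 6 lower, beside 15.3% and 11.5%. The lower ones were Fam71f1, Izumo1, Izumo2, Spaca4, Spaca7 and Sppl2c, and the 15 genes summed to 2736 CPM in cKO and 3901 CPM in control, with the panel at 1358 CPM and 1865 CPM. In spermatogonia 6 of 31 genes were higher and 0 of 31 lower, beside 9.13% and 4.3%, and in early spermatocytes 8 of 31 were higher and 1 lower, beside 11.7% and 4.5%. In cKO each of these higher genes stood below its own Leydig level, except Zp3r, at 24.2 CPM in spermatogonia and 22.6 CPM in Leydig cells.

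Of 42 other genes of the acrosome and of sperm and egg fusion, taken from a second list, 40 were measured in early round cells, 8 were over 1.5-fold higher in cKO and 2 lower, beside 21.5% and 6.14% of all genes, with a median log2 ratio of 0.06 beside 0.13. Smap2, a regulator of ARF GTPases at the trans-Golgi that mice need to form acrosomes, was the highest of them. It was at 44.8 CPM in cKO (711 UMIs) and 6.30 CPM in control (108 UMIs) in early round cells, a log2 ratio of 2.83, and at 55.7 against 18.7 CPM in pachytene cells (1.57). Hyal6 and Hyal4, hyaluronidase genes beside Spam1 and Hyal5 on chromosome 6, were the 2 lower ones. Hyal6 (chr6:24733245-24745452) was at 18.8 CPM in cKO and 37.8 CPM in control early round cells (-1.01), and Hyal4 at 4.54 and 6.82 CPM (-0.59). Spam1 and Hyal5 in the same cluster had log2 ratios of -0.29 and 0.05 there.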

How the data were processed

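The 32 genes and all gene lists were chosen with earlier results of these data known. The deposited values are UMI counts for 1 cKO and 1 control library, and the file headers name Cell Ranger 7.0.0. The submitters' processing notes name build mm10 and Seurat 4.1.0. From these counts, barcodes were kept if they had at least 500 UMIs, at least 300 genes and no more than 10% of UMIs from mitochondrial genes, 18451 in cKO and 15897 in control. Doublet scores were simulated with scanpy 1.11.5. The caller's own threshold marked 0 and 1 cells, so a score limit of 0.2 was set after seeing the scores; it removed 326 cKO and 352 control cells and caught 13.6% and 20.8% of simulated doublets, so most doublets stayed in. There were 102 barcode sequences present in both libraries.

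Cells with 3000 or more UMIs, 7973 and 7453, were scored for marker panels without the 32 genes and cut into 8 ranges. The cuts and the UMI minimum were set after seeing the scores, and no annotation of the authors was used, so ranges may differ from theirs. UMIs were summed per library and range and given per 1000000 UMIs (CPM) with exact Poisson intervals; ratios have Clopper-Pearson intervals on the split of UMIs. Both cover counting error only. A gene counted as measured where the libraries together gave it at least 50 UMIs, and as higher or lower past 1.5-fold. Genes described with values are those past 1.5-fold in a spermatid range and the earliest and latest in onset of each role group. Spata16, Dpy19l2, Acrbp, Spink2, Crisp2, Cylc1, Spata46, Smap2, Hyal6 and Hyal4 fall outside this rule and were chosen after their values were seen. The ratio and its interval were tested on simulated data. Free RNA was taken as mean UMIs of each gene per Leydig cell, and, added after seeing the data, scaled so that panels of other stages were not exceeded. In spermatogonia and early spermatocytes of each library the scaled estimate still exceeded the summed UMIs of the 32 genes. Leiden clusters (resolution 1, 30 components, 20 neighbours, 2000 variable genes) left out the 32 genes. They put 81.2% of germ cells in the same range.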

Additional observations from a re-analysis of the deposited data

How the results depend on the processing

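No paired analysis was possible because there was 1 library of each genotype and no replicate number. Of 173 values of counts, medians, summed shares and onset under other settings, 117 kept their call and 56 did not. The cause of each was not tested.

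Subtracting unscaled free RNA gave 1 higher and 4 lower in early round, 4 lower in late round, 2 higher and 6 lower in elongating, and 0 higher in condensing cells. The medians were then -0.23, -0.14, -0.12 and 0.0073, and the log2 ratios of the summed share -0.19, -0.13, -0.17 and -0.23. With scaled free RNA there were 1 higher and 2 lower, 4 lower, 3 lower, and 15 higher and 3 lower in these ranges, with medians of -0.22 in early and -0.14 in late round cells and summed ratios of -0.19, -0.13 and, in condensing cells, 0.037. Sppl2c then turned to -2.08 in early round cells.

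Scaling by the median ratio gave 3 higher and 2 lower in elongating and 2 higher and 2 lower in condensing cells, with medians of -0.14 in late round, 0.030 in elongating and -0.082 in condensing cells. Leaving the 50 most abundant genes out of totals gave 2 higher and a median of 0.11 in condensing cells. Ordering spermatids by transition protein and protamine genes gave 1 lower in late round, 2 higher and 4 lower in elongating cells, a median of -0.036 there, summed ratios of -0.15 in early round, -0.086 in late round and -0.14 in elongating cells, and Zp3r at -0.11. Leiden clusters gave 1 lower in late round and 2 lower in elongating cells, summed ratios of -0.064, -0.11 and -0.056 in early round, late round and elongating cells, Gopc at -0.032 and Zp3r at -0.033. Keeping doublets gave 1 higher in early round and 1 in elongating cells. A minimum of 500 UMIs gave 1 higher, 0 lower and a median of 0.014 in elongating cells, and 2000 UMIs a summed ratio of -0.075 in late round cells. With no filter on low counts 2 genes were higher in late round cells. With onset at 10% of the peak, 32 genes in cKO and 27 in control came on before early round cells, and 20 shared a range in both libraries. Some of these calls rest on values in spermatogonia that were higher than in pachytene cells.

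Depth limits Gopc and Tmprss12 most, with under 100 UMIs a library in late spermatids. With 1 library per genotype, differences between animals, dissociations and libraries cannot be told apart from genotype.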
